A study of Mus musculus with 9 samples.

Results

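The replication-dependent histone genes supply the core histones H2A, H2B, H3 and H4 and the linker histone H1 that package newly replicated DNA. They were chosen by gene name: a protein-coding gene of GENCODE M21 (build mm10) was included when its symbol begins with Hist1h, Hist2h, Hist3h or Hist4h. This gave 67 genes of 21951 protein-coding genes, with 6 for H1, 18 for H2A, 18 for H2B, 12 for H3 and 13 for H4. Of them, 54 belong to Hist1 on chromosome 13, 10 to Hist2 on chromosome 3, 2 to Hist3 on chromosome 11 and 1, Hist4h4, stands alone on chromosome 6. The group was taken up because a WT peak next to Hist1h4c was already known to lack a Shh-/- counterpart, so that peak is given as a description and supports nothing further.

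Acetylation of histone H3 at lysine 27 (H3K27ac) marks active promoters and enhancers, and it was profiled in forelimb buds at E10.5 (33 to 34 somites), at which stage a limb bud is mostly mesenchyme under an ectodermal sheet. The 3 genotypes were WT littermates (Shh+/+;Gli3+/+), Shh-/- embryos, which lack the Sonic hedgehog ligand, and Shh-/-;Gli3-/- embryos, which also lack the repressor-forming transcription factor GLI3. The labels give a mixed strain background for all samples while the study's methods state that the mutant alleles were kept on Swiss Webster, both genes carried germline null alleles, and each immunoprecipitation used the limb buds of a single embryo. Each genotype had 2 H3K27ac libraries and 1 input library, but 1 peak list stands for each genotype, with 25096 WT, 32085 Shh-/- and 34641 Shh-/-;Gli3-/- peaks. Since no list gives values for single replicates, no difference between genotypes below has a test, and the lists do not give the depth of each library, for which the study's methods state a common minimum. A genotype cannot be told apart from its libraries, their depth or their input.

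Synthesis of these histones is coupled to S phase, when the coactivator NPAT, bound at the clusters in histone locus bodies, drives transcription. Their mRNAs carry no poly(A) tail and end instead in a conserved stem-loop, which is bound by the stem-loop binding protein SLBP. Many H2A and H2B genes stand head to head and share the short promoter between them, and most genes of the clusters have no intron.

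The stem-loop is the feature that defines the class, so it was read from the reference genome (mm10) for every member. Within 150 bases of the stop codon, 65 of the 67 genes carried a 16-base stem-loop, 22 to 59 bases after the stop, and no match to the searched form was found there for Hist1h2an and Hist2h2be. The 3 forms that most genes shared are shown 5′ to 3′ with the 4 loop bases in capitals, and the lower-case arms on either side pair with each other.
Form in 41 genes: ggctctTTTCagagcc
Form in 9 genes: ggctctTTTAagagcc
Form in 8 genes: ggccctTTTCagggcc

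Promoter sequences were taken from RefSeq (GRCm38.p6), in which 62 of the 67 genes were matched. Known promoter elements of the histone families were searched on both strands of the 250 bases before each start. CCAAT was present in 82.3% of the histone promoters and in 33.8% of all 32851 promoters, with all 6 H1, 18 of 18 H2A, 16 of 16 H2B and 8 of 10 H3 promoters but 3 of 12 H4 promoters holding it. GGTCCG, the core of an H4 promoter element, was found in 9 of 12 H4 promoters, in 17.7% of all histone promoters and in 6.72% of all promoters. AAACACA, the H1 box, was found in 5 of 6 H1 promoters, against 14.5% of histone promoters and 6.25% of all promoters. The octamer ATTTGCAT occurred in 7 H2A and 7 H2B promoters and in no H1, H3 or H4 promoter, which made 22.6% of histone promoters against 1.601% of all promoters, and head-to-head partners share these bases. TATAAA was present in 46.8% of histone promoters and 12.4% of all promoters, and the E2F-type letters TTTGGCGC in 0 of 62, against 0.417% of all promoters. A match to these letters is a description of the sequence and not evidence of binding.

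The 180 bases upstream of the start are shown for 4 genes on which the peak comparisons turn, with the searched letters in capitals on either strand. Hist1h4c lies beside the WT peak without a Shh-/- counterpart, Hist1h4d has the widest WT peak, Hist1h2bj shares its promoter with Hist1h2ag, and Hist1h1d has the largest deficit of covered bases in Shh-/-. They lie at chr13:23698459-23698638 (minus strand), chr13:23581388-23581567, chr13:22043018-22043197 and chr13:23554852-23555031 (plus strand).
Hist1h4c: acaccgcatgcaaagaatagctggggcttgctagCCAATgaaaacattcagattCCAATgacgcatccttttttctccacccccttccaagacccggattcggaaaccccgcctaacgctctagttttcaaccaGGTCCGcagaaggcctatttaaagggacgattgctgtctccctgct
Hist1h4d: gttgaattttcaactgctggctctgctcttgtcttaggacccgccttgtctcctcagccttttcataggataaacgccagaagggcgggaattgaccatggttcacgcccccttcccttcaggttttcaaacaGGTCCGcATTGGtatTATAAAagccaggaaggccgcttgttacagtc
Hist1h2bj: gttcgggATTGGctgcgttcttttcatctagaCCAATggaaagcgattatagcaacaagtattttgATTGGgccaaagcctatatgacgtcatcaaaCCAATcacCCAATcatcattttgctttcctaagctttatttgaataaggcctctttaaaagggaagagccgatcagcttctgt
Hist1h1d: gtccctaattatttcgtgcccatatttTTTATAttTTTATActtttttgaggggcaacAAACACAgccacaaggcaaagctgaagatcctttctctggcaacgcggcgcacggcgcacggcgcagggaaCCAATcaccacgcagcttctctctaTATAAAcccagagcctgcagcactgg

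Nearly every histone gene had H3K27ac enrichment in all 3 genotypes. A peak lay within 1 kb of the gene span for 66 of 67 genes in the WT list, 66 of 67 in the Shh-/- list and 66 of 67 in the Shh-/-;Gli3-/- list, which is 98.5% each (Wilson 95% confidence interval 92 to 99.7). Among all protein-coding genes the same shares were 49.6%, 53.6% and 51.8%. Within 1 kb of the gene start the share was 97% (65 of 67) in each list, against 41.5%, 45.3% and 43.6% of all protein-coding genes. Intervals over genes and peaks cover counting error only, not the spread between embryos, and neighbouring genes share peaks, since the 67 windows merge into 34 separate stretches.

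The gene without any peak was Hist3h2ba, an H2B gene, in all 3 lists. Its neighbour Hist3h2a, an H2A gene, had 850 bp covered in WT, 500 bp in Shh-/- and 850 bp in the double mutants. At the edge of the window stood Hist1h1t, the testis-specific H1 gene, which had 326 bp, 26 bp and 426 bp in the same order, all from the peak over the neighbouring Hist1h4c. The head-to-head pair Hist1h2ba and Hist1h2aa, the testis variants of H2B and H2A, shared 1 narrow peak of 200 bp in WT, 200 bp in Shh-/- and 250 bp in Shh-/-;Gli3-/-. These testis genes were the least covered of the genes that had peaks, in a tissue in which they are not known to act.

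Thus, the number of histone genes with a WT peak and no Shh-/- peak was 0, and the reverse was 0 as well. The peak without a counterpart at Hist1h4c was 1 of several peaks of that gene, and the gene kept another peak in Shh-/-. When only peaks on the gene body itself were counted, 3 genes had a WT peak and no Shh-/- peak, namely the H2A gene Hist1h2ak and the H2B genes Hist1h2bj and Hist2h2bb. The difference between the lists therefore lay in how much sequence the peaks covered and not in which genes had one.

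Coverage around the gene start had 2 shoulders and a dip between them, as at other genes. In the WT list 89.6% of the histone genes were inside a peak at -575 bp and 94.0% at 225 bp, with a low of 49.3% at -125 bp. In the double mutant list the shoulders were at 89.6% and 94.0% again, and the dip stood at 59.7%. In the Shh-/- list the shoulders reached 79.1% at -475 bp and 85.1% at 325 bp, and the dip went down to 19.4% at -75 bp. At other protein-coding genes the low was 11.9% in WT, 14.3% in Shh-/- and 17.2% in Shh-/-;Gli3-/-, so that there the Shh-/- list was above the WT list.

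**Figure D1:**
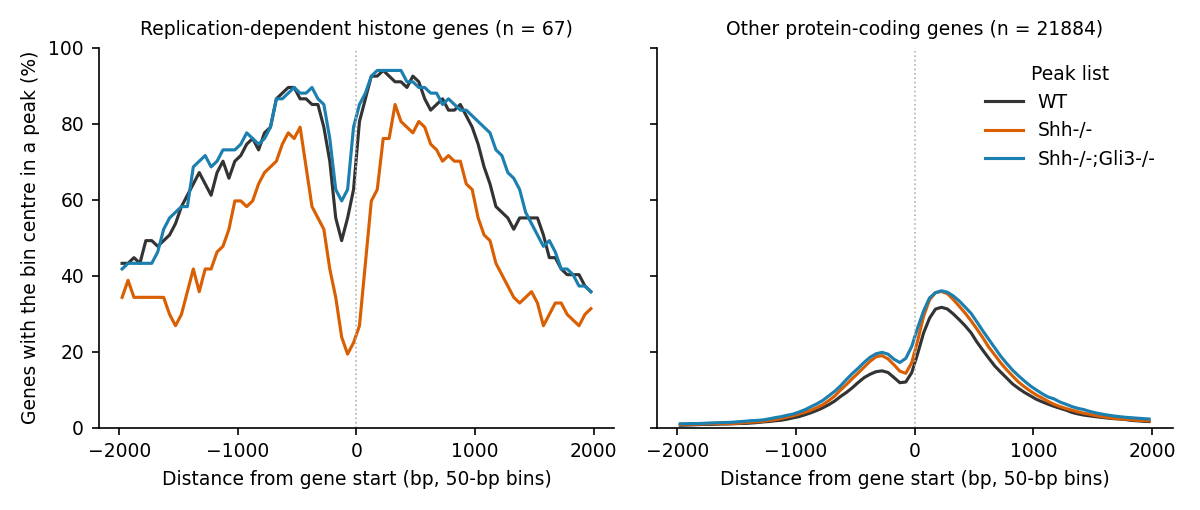
Share of genes (%, vertical axis) whose 50-bp bin centre lies inside a peak, against distance from the annotated gene start (bp, upstream negative), for the 67 histone genes (left) and the other 21884 protein-coding genes (right), with 1 line per peak list. At the histone genes the Shh-/- line runs below both other lines and falls to 19.4% just upstream of the start, whereas at other genes it runs above the WT line.

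The start base itself was inside a peak at 48 histone genes in WT, 15 in Shh-/- and 56 in Shh-/-;Gli3-/-, against 17.0%, 19.7% and 23.8% of all protein-coding genes. Of the 48 starts covered in WT, 14 were also covered in Shh-/- and 46 in the double mutants. Among the H4 genes 11 of 13 starts were covered in WT, of which 6 were covered in Shh-/- as well, and 1 further start, that of Hist1h4h, was covered in Shh-/- but not in WT. In the double mutants 12 H4 starts were covered. Of the H2A starts 13 of 18 were covered in WT and 3 in Shh-/-, of the H2B starts 9 of 18 and 2, of the H3 starts 11 of 12 and 2, and of the H1 starts 4 of 6 and 1. The 2 H2B starts covered in Shh-/- were those of Hist1h2bl and Hist1h2be. For Hist1h2be this holds for the GENCODE start alone, which lies over 1 kb from the start codon. Its RefSeq start, chr13:23585970, was inside a WT peak but inside no peak of either mutant list. The starts covered in Shh-/- included those of the H4 genes Hist1h4j, Hist1h4k, Hist1h4n, Hist1h4h, Hist1h4f, Hist1h4a and Hist4h4. Merging peaks that lay within 1 kb of each other, an alternative chosen after seeing the data, brought the number of covered starts to 62 in WT, 57 in Shh-/- and 63 in the double mutants, so the difference between the lists was much smaller. With merged peaks the starts of 5477, 6531 and 6658 of the other 21884 protein-coding genes were covered, in the same order. Most of the starts left uncovered in Shh-/- before merging lay in a gap between neighbouring Shh-/- peaks.

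The promoters shared by head-to-head genes had the same pattern. Of 13 such pairs, whose starts were 175 to 659 bp apart, all 13 shared at least 1 peak in each list. The gap between the starts was partly covered in 11 pairs in WT, 4 in Shh-/- and 12 in Shh-/-;Gli3-/-. Of the 753 head-to-head pairs among all protein-coding genes it was partly covered in 45.0%, 50.6% and 57.9%. Between Hist1h2ap and Hist1h2br, 235 of 235 bp were covered in WT, 42 bp in Shh-/- and 235 bp in the double mutants. Between Hist1h2ag and Hist1h2bj, 69 of 269 bp were covered in WT, 0 bp in Shh-/- and 105 bp in the double mutants.

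In total, peaks covered 103 kb of the 199 kb within 1 kb of the histone genes in WT and 78.2 kb in Shh-/-, but 108 kb in the double mutants. The covered length was thus 0.763 times the WT value in Shh-/- and 1.05 times in the double mutants, whereas around all other protein-coding genes it was 1.21 times and 1.49 times. The double mutant value is close to 1 and fell below it, to 0.989, when the lists were cut to equal total width and, to 0.986, when neighbouring peaks were merged, so no direction is read from it. At other protein-coding genes the double mutant ratio was 0.977 with equal total width, near the histone value, and 1.47 with merged peaks. The Shh-/- list covered fewer bases than the WT list at 59 of the 66 histone genes with peaks, more at 5 and equally many at 2. Among all protein-coding genes with a WT peak, 34.2% had fewer bases in Shh-/-. The double mutant list covered more than WT at 44 of 66 histone genes, or 66.7%, which was near the 72.7% of all protein-coding genes. Shh-/- was below both other lists at 58 of 66 genes. The same share over all protein-coding genes was not computed, so this count is not read as particular to histone genes.

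**Figure D2:**
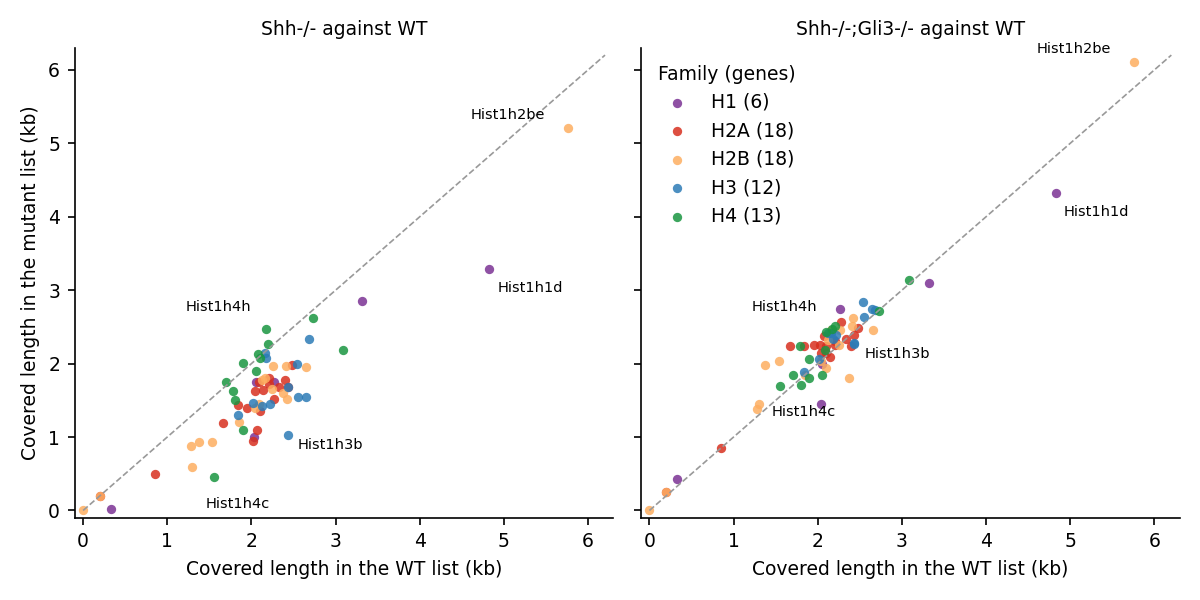
Length covered by peaks within 1 kb of each histone gene (kb), in the Shh-/- list (left) and the Shh-/-;Gli3-/- list (right) against the WT list, with 1 point per gene coloured by family and a dashed line at equal length. On the left 59 of the 66 genes with peaks lie below the line, and on the right 44 lie above it.

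The linker histone genes, which encode the H1 proteins that bind DNA between nucleosomes, had a covered length of 14.8 kb in WT and 10.7 kb in Shh-/-, with 14.0 kb in the double mutants, and a ratio of 0.720 for Shh-/- to WT. All 6 had fewer bases in Shh-/-, although those of Hist1h1t (326 bp in WT and 26 bp in Shh-/-) came from the peak over Hist1h4c. Hist1h1d (ENSMUSG00000052565, chr13:23553262-23560686) had 4825 bp in WT, 3288 bp in Shh-/- and 4325 bp in Shh-/-;Gli3-/-, the largest deficit of any histone gene in Shh-/- (a difference of -1537 bp). The annotated start of Hist1h1d lies over 1 kb from its start codon, and of its 10 WT peaks 6 had no Shh-/- counterpart. Hist1h1a had 2034 bp, 1000 bp and 1450 bp, and it was also the gene with the largest deficit in the double mutants (-584 bp).

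Of the core histones, H2A genes had a ratio of 0.710, H2B genes 0.747 and H3 genes 0.719 for Shh-/- to WT. H2A and H2B form the dimers that flank the H3 and H4 tetramer of the nucleosome. Fewer bases were covered in Shh-/- at 17 of 18 H2A genes, 16 of 17 H2B genes with peaks and 12 of 12 H3 genes. The largest deficit in Shh-/- after Hist1h1d was at the H3 gene Hist1h3b. Next came the H3 gene Hist1h3f and the H4 gene Hist1h4c, with equal differences of -1100 bp. Hist1h3b (ENSMUSG00000069267, chr13:23752267-23752886) had 2433 bp in WT, 1033 bp in Shh-/- and 2270 bp in the double mutants. Hist1h3f had 2648 bp, 1548 bp and 2748 bp. At the H2A gene Hist1h2ab, the WT list covered 2023 bp, the Shh-/- list 949 bp and the double mutant list 2249 bp, the largest difference between the mutants (1300 bp). Next came the H2A gene Hist1h2ae, with 2071 bp, 1100 bp and 2371 bp.

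H4 genes stood closest to WT, with 27 kb in WT and 24.1 kb in Shh-/-, with 28.6 kb in the double mutants, and a ratio of 0.891 for Shh-/-. Fewer bases were covered in Shh-/- at 8 of 13 H4 genes. The 3 histone genes with the largest gains in Shh-/- were all H4 genes. Hist1h4h had 2170 bp in WT and 2470 bp in each mutant, Hist1h4k had 1900 bp, 2012 bp and 2056 bp, and Hist2h4 had 2200 bp, 2262 bp and 2512 bp. Within this family the lowest Shh-/- value was at Hist1h4c, with 1550 bp in WT, 450 bp in Shh-/- and 1700 bp in the double mutants. Hist1h4f was the gene at which the double mutants had the fewest bases relative to Shh-/-, with 2049 bp in WT, 1899 bp in Shh-/- and 1849 bp in Shh-/-;Gli3-/-. Whether H4 differs from the other families could not be tested with 1 list per genotype.

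In the double mutants the gains over WT were largest at the head-to-head genes Hist1h2bn, with 1377 bp in WT and 1977 bp, and Hist1h2ak, with 1665 bp and 2243 bp, followed by Hist1h2bj with 1536 bp and 2036 bp. Hist1h2bm, an H2B gene, had 2374 bp in WT, 1606 bp in Shh-/- and 1806 bp in the double mutants, and its deficit in the double mutants was second to that of Hist1h1a. Hence gains and deficits were more evenly mixed in the double mutants than in Shh-/-.

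The Shh-/- to WT ratio was below 1 in 3 of the 4 runs of genes on chromosome 13. The genes lie in 7 runs separated by more than 100 kb, and the 18 genes from Hist1h2bl to Hist1h2br had 0.805 of the WT length in Shh-/-, the 5 from Hist1h2ah to Hist1h2bj 0.808, and the 29 from Hist1h4h to Hist1h1a 0.723. The pair Hist1h2ba and Hist1h2aa, with its single narrow peak, had equal lengths. The 10 Hist2 genes on chromosome 3 had 0.789. At the isolated Hist4h4 on chromosome 6, the WT list covered 1700 bp, the Shh-/- list 1750 bp and the double mutant list 1850 bp. Of the protein-coding neighbours inside the runs, the iron regulator gene Hfe had no peak in any list, and Trim17 and Bola1 had peaks in all 3.

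The peaks themselves were wide in WT and narrower and more numerous in Shh-/-. WT had 92 peaks, Shh-/- 118 and the double mutants 62 within 1 kb of histone genes. Near all protein-coding genes there were 19773, 24156 and 24195, so Shh-/- peaks outnumbered WT peaks there as well. The histone peaks had a median width of 950 bp in WT (binomial 95% interval 550 to 1200), 525 bp in Shh-/- (450 to 750) and 1450 bp in the double mutants (1150 to 1700). Peaks near all protein-coding genes had medians of 300 bp, 300 bp and 350 bp. Widths of 1 kb or more were reached by 47.8% of WT, 25.4% of Shh-/- and 69.4% of double mutant histone peaks, against 10.6%, 10.52% and 15.9% near all genes. One peak alone served 20 genes in WT, 9 in Shh-/- and 32 in the double mutants, and 3 or more peaks served 18, 36 and 6 genes.

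The widest WT peak spanned 5300 bp at chr13:23580700-23585999, over Hist1h4d and the 3′ end of the long H2B gene model Hist1h2be. Inside this peak lies the RefSeq start of Hist1h2be, at chr13:23585970 and 14 bp from the start codon. The largest log2 fold over input of this peak, 5.75, was also the highest of all WT histone peaks. The peak overlapped 6 separate Shh-/- peaks and 1 double mutant peak of 5350 bp. Hist1h4d (ENSMUSG00000061482) had 3088 bp in WT, 2186 bp in Shh-/- and 3136 bp in the double mutants. The widest double mutant peak covered 7750 bp at chr13:23569850-23577599, across Hist1h2ae, Hist1h2bg, Hist1h2bf, Hist1h2ad and Hist1h3d, and it lay over 5 WT and 9 Shh-/- peaks. The widest Shh-/- peak, by contrast, was 2850 bp at Hist1h4h, where it overlapped 3 WT peaks.

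Other wide and strong peaks lay in several of the chromosome 13 runs. In WT, the peak over Hist1h4n, Hist1h2ap and Hist1h2br was 3800 bp wide with a log2 fold of 5.43, and that at Hist1h2bq and Hist1h2ao had a log2 fold of 5.64. In Shh-/- the second widest peak, 2200 bp, lay over Hist1h4a and Hist1h3a, and the highest log2 folds were 4.83 at Hist1h1b and 4.82 at Hist1h3c and Hist1h2bb. In the double mutants the highest log2 folds were 5.61 at Hist1h3c and Hist1h2bb and 5.47 at Hist1h4i, Hist1h2ag and Hist1h2bj. The genes Hist1h2bq, Hist1h2ao, Hist1h4m, Hist1h4n, Hist1h2ap and Hist1h2br belong to a duplicated block, in which 87.7% to 100% of the bases around each gene have an exact 50-base copy elsewhere, and Hist2h2aa1 and Hist2h2aa2 are near-identical as well (62.7% and 64%). Their individual values are uncertain, because how reads with several matches were treated is not given in the sources used here.

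Splitting was more frequent at histone genes than at other genes. Of the 92 WT peaks, 30 (32.6%) overlapped more than 1 Shh-/- peak, against 5.6% of the WT peaks near all protein-coding genes. More than 1 double mutant peak was overlapped by 9 (9.78%), against 2.51% near all protein-coding genes. Since histone peaks were wide, the comparison was repeated for widths of 1 kb or more. Of 44 such histone peaks 30 (68.2%) were split in Shh-/-, against 28.6% near all protein-coding genes, and 6 (13.6%) were split in the double mutants, against 10.02% near all genes. Width was still not matched, since 18 of the 44 histone peaks were 2 kb or wider, against 328 of 2095 near all genes.

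H3K27ac enrichment within most of the wide peaks was also lower in the Shh-/- list. At the 44 WT histone peaks of 1 kb or more, the largest log2 fold of the overlapping Shh-/- peak was lower than that of the WT peak at 32, or 72.7%, whereas 40.1% of all such peaks near protein-coding genes were lower. The median difference, Shh-/- minus WT, was -0.37 (interquartile range -1.05 to 0.02) at histone peaks and 0.19 (-0.26 to 0.64) at peaks of other genes. The double mutants differed from WT by a median of 0.22 at histone peaks and 0.53 at peaks of other genes. Since each fold is relative to the input of its own genotype, ranks within each list were compared as well, and histone peaks of 1 kb or more stood a median of -6.71 percentile points from their WT rank in Shh-/-, against 0.310 for the other genes and -0.0208 for the histone peaks in the double mutants. Per gene, the strongest peak was lower in Shh-/- than in WT at 50 of 66 histone genes, and lower in the double mutants at 27, against 29.7% and 28.1% of all protein-coding genes with peaks in both lists.

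Some WT peaks had no Shh-/- counterpart at all. Of the 92 WT peaks, 23 had no overlapping Shh-/- peak (25%, Wilson 95% confidence interval 17.3 to 34.7), an interval that includes the 31.5% of the WT peaks near all protein-coding genes. The share depended on the rule, at 8.06% among peaks with a log2 fold of at least 3 and 4.35% when a gap of up to 500 bp was allowed. Without a double mutant peak were 11 (12.0%, interval 6.81 to 20.2), against 25.8%. In the reverse direction, 7 of 118 Shh-/- peaks (5.93%) and 4 of 62 double mutant peaks (6.45%) had no WT counterpart, against 45.1% and 48.2% near all genes. All 44 WT histone peaks of 1 kb or more had a Shh-/- counterpart, as did 14 of the 15 of 500 to 950 bp. Near all protein-coding genes, 2 of 2095 and 66 of 4145 peaks of these widths had none, so wide peaks rarely lacked one there either. Of the 33 narrower histone peaks, 22 had no counterpart (66.7%, against 45.5% near all genes).

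The 23 WT peaks without a Shh-/- peak were narrow and weak, with 1 exception. Their widths ran from 100 to 500 bp and their median log2 fold was 2.66, against a median width of 1250 bp and a median log2 fold of 4.16 for the 69 WT peaks with a counterpart. Of the 23, 13 had a false discovery rate (FDR) below 0.05 and 13 overlapped a double mutant peak. The exception lay next to Hist1h4c (ENSMUSG00000060678, chr13:23697635-23698454, minus strand), with a log2 fold of 4.39 and an FDR of 0.00115. Of the WT histone peaks with a log2 fold above 4, this 1 had no counterpart and 40 had one, and the second strongest of the 23 had a log2 fold of 3.15.

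**Figure D3:**
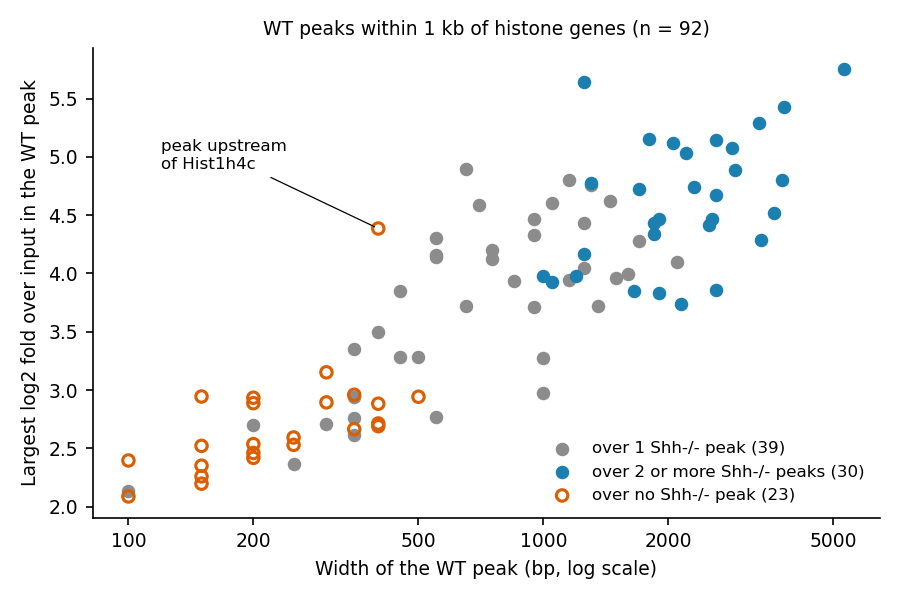
Each of the 92 WT peaks within 1 kb of histone genes, by its width (bp, log scale) and its largest log2 fold over input, with open symbols for the 23 peaks without a Shh-/- peak and filled ones for those over 1 (grey) or at least 2 (blue) Shh-/- peaks. The open symbols sit at a log2 fold of 3.15 or less except for the peak upstream of Hist1h4c at 4.39, and the split peaks are all 1 kb or wider.

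The peak at chr13:23698650-23699049 was 400 bp wide and began 196 bp upstream of the annotated start of Hist1h4c. Its strongest position was 421 bp upstream. In Shh-/- the nearest peak was 500 bp away, over the gene itself, while the double mutant list held a peak of 550 bp at chr13:23698700-23699249 with a log2 fold of 3.17. A smaller WT peak of 150 bp further upstream, at chr13:23699250-23699399, overlapped no peak in either mutant, although it directly adjoins the double mutant peak. Over the gene, the WT peak was 1000 bp wide with a log2 fold of 3.28, the Shh-/- peak 450 bp with 3.45 and the double mutant peak 1150 bp with 3.39. The upstream shoulder was hence the part without a Shh-/- peak, while the gene itself carried a peak in each list. On the downstream side, beyond Hist1h1t, the H2B gene Hist1h2bc had 2651 bp in WT, 1951 bp in Shh-/- and 2451 bp in the double mutants. The bases around the strongest position of the upstream peak (chr13:23698775-23698974, written on the gene's strand) are shown because this is the lone strong WT peak without a counterpart. None of the searched promoter letters occurs in them, and 37% of them are G or C.
Hist1h4c upstream peak: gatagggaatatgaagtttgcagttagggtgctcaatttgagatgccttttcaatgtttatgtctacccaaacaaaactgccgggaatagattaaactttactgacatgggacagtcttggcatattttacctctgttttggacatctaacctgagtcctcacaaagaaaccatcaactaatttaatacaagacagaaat

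Few genes lacked coverage on a whole side of the start. Of 63 histone genes with WT coverage in the 1 kb upstream of the start, 2 had none there in Shh-/-, Hist1h4c and Hist1h2ag. Of 64 with WT coverage in the 1 kb downstream, 2 had none there in Shh-/-, Hist1h1d and Hist2h2bb. For Hist1h1d this holds for the GENCODE start alone, because a Shh-/- peak at chr13:23555050-23556549 lies just downstream of the RefSeq start used for the promoter shown above. In the double mutants no gene lost either side. The same counts over all protein-coding genes were not computed, so these cannot be set beside other genes. At Hist1h2ag and its partner Hist1h2bj, the WT peak at chr13:22043200-22043499 (log2 fold 3.15, FDR 0.00166), over the start of Hist1h2bj, lay 300 bp from the nearest Shh-/- peak and overlapped a double mutant peak of 1200 bp. At Hist2h2bb the WT peak of 500 bp at chr3:96269800-96270299 (log2 fold 2.94) lay 400 bp from the nearest Shh-/- peak and overlapped a double mutant peak of 700 bp.

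Because histone genes were far more densely covered than other genes in WT, they were also set beside other well-covered genes, a comparison chosen after seeing the data. At least 1500 bp within 1.5 kb of the start was covered in WT at 62 histone genes and at 1183 other genes. The median length in Shh-/- relative to WT was 0.748 (interquartile range 0.704 to 0.814) at the histone genes and 0.978 (0.881 to 1.08) at the others. Fewer bases in Shh-/- were found at 59 of the 62 (95.2%) and at 612 of the 1183 (51.7%). In the double mutants the medians were closer to each other, 1.04 and 1.09. The start base was inside a peak at 77.4% of these histone genes and 77.3% of the others in WT, at 24.2% and 73.0% in Shh-/-, and at 88.7% and 87.7% in Shh-/-;Gli3-/-. The histone genes were still the more densely covered in WT, since 35 of the 62 but 92 of the 1183 had 2500 bp or more. In that densest class the median in Shh-/- was 0.747 at the histone genes and 0.951 at the others, and fewer bases were covered in Shh-/- at 35 of 35 and at 68.5% of the others. The start was inside a peak in that class at 77.1% of the histone genes and 89.1% of the others in WT, and at 17.1% and 80.4% in Shh-/-.

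**Figure D4:**
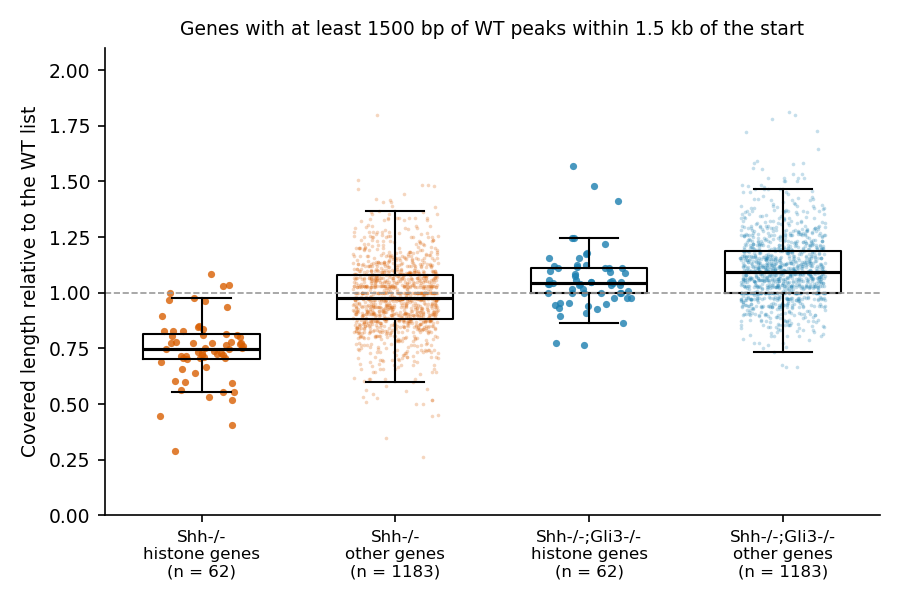
Length covered within 1.5 kb of the start in each mutant list relative to WT, for the 62 histone genes and 1183 other genes with at least 1500 bp covered in WT, with 1 point per gene, boxes for the quartiles with a line at the median, and whiskers to the farthest gene within 1.5 interquartile ranges. In Shh-/- the histone genes have a median of 0.748 and the others 0.978, while in Shh-/-;Gli3-/- the medians are 1.04 and 1.09.

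The difference was much the same in unique and in repeated sequence. Of the bases around histone genes, 18.6% are the centre of a 50-base sequence with an exact copy elsewhere in the genome, and the Shh-/- to WT ratio was 0.751 at the remaining unique bases and 0.800 at the repeated ones. Without the 6 genes of the duplicated block the ratio was 0.758, and without Hist1h4c it was 0.768. With lists cut to equal total width it was 0.713, against 1.01 at other genes. Merging peaks within 1 kb of each other gave 0.875, against 1.24 at other genes, so that part of the deficit lay in gaps between neighbouring Shh-/- peaks.

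Taken as whole lists, other genes of the histone pathway had a smaller Shh-/- deficit than the 67 histone genes together (0.763), or none. Single genes in them had marked deficits. Around all other protein-coding genes the ratio was 1.21, and 34.2% of all protein-coding genes with a WT peak had fewer bases in Shh-/-. The lists were drawn up with earlier results of these data known. The replication-independent histone genes, which supply variants such as H3.3 and H2A.Z outside S phase, had 18.4 kb covered in WT. They had 16.6 kb in Shh-/- and 19.0 kb in the double mutants. Their ratio of 0.902 was close to the 0.891 of the H4 genes, and 8 of 11 had fewer bases in Shh-/-. Among those 8 were H2afx, with 2000 bp in WT and 1450 bp in Shh-/-, and H2afz, with 2773 bp and 2173 bp. The exception in presence among the 11 genes was H2afj, with 550 bp in WT, 0 bp in Shh-/- and 650 bp in the double mutants. Genes for transcription and processing of histone mRNA had a ratio of 1.28, with fewer bases in Shh-/- at 2 of the 13 with a WT peak. Npat, whose product activates the clusters, had 1050 bp in WT, 1300 bp in Shh-/- and 1250 bp in the double mutants, and Slbp had 1700 bp, 1400 bp and 1800 bp. Lsm11, a subunit of the U7 particle that processes histone mRNA ends, had 0 bp, 200 bp and 450 bp.

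Histone chaperone genes had a ratio of 0.954, with fewer bases in Shh-/- at 6 of 9, among them Npm1 with 1800 bp in WT and 1300 bp in Shh-/-. Genes of S phase such as replication factors had peaks at 18 of 18 genes in each list and a ratio of 1.05, with fewer bases in Shh-/- at 8 of 18, and a ratio of 1.27 in the double mutants. The share of cells in S phase was not measured, and fewer cells with a mark and less of the mark per cell cannot be told apart in whole limb buds.

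**Figure D5:**
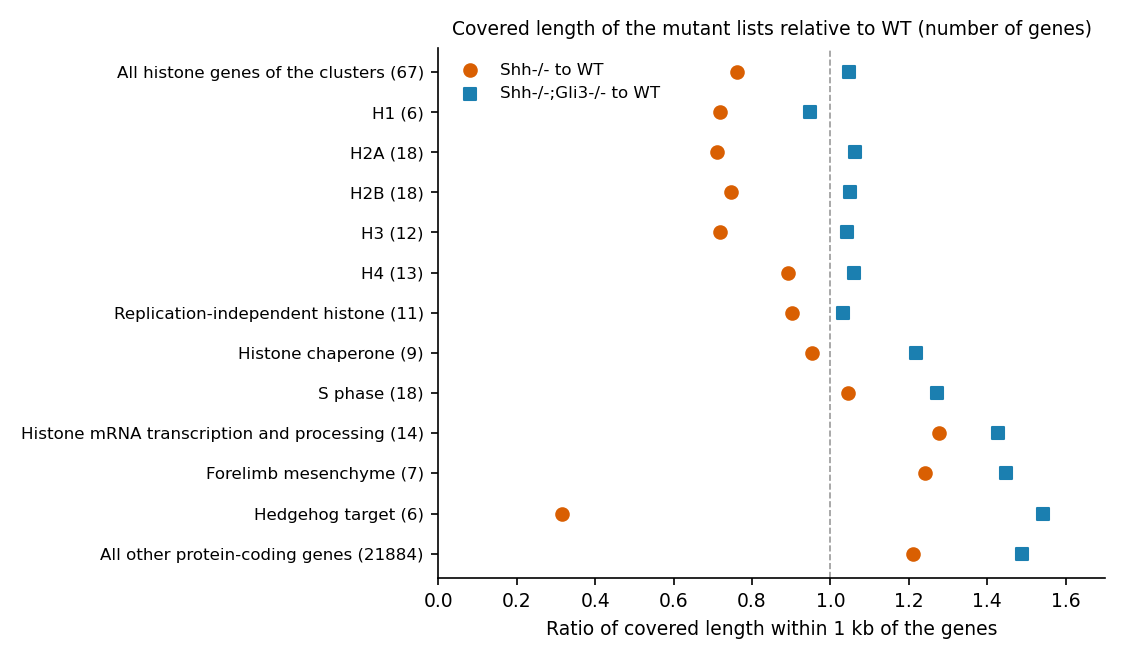
Ratio of the length covered within 1 kb of the genes in the Shh-/- list (circles) and the Shh-/-;Gli3-/- list (squares) to that in the WT list, for the histone genes, their families and other gene groups, with the number of genes in brackets and a dashed line at 1. The histone families lie between 0.710 and 0.891 for Shh-/-, and of the other groups shown the Hedgehog targets, at 0.314, lie below them.

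The genotypes and the tissue were checked with marker genes. Of 6 Hedgehog target genes, 4 had peaks in WT, 2 in Shh-/- and 4 in Shh-/-;Gli3-/-, with 9.7 kb, 3.05 kb and 14.97 kb covered. Those present in some lists but not in others were Gli1 with 1500 bp in WT and 0 bp in both mutants, Hoxd13 with 100 bp, 0 bp and 1250 bp, and Hhip with 0 bp, 0 bp and 650 bp. All 7 forelimb mesenchyme genes had peaks in each list, with a ratio of 1.24 for Shh-/- to WT. Markers of other cells had few peaks: blood genes had peaks at 0, 2 and 2 of 7, muscle precursor genes at 0, 4 and 2 of 5, ectodermal genes at 0, 1 and 0 of 7 and male germ line genes at 0, 1 and 0 of 4, in the order WT, Shh-/- and Shh-/-;Gli3-/-. The genes among them with a peak were Hbb-bt, Klf1, Pax3, Met, Myf5, Lbx1, Trp63 and Prm1 in Shh-/- and Klf1, Alas2, Met and Lbx1 in the double mutants, with at most 450 bp each. Endothelial genes had peaks at 3 of 5 in each list, with 0.75 kb, 1 kb and 2.2 kb. Of the 2 hindlimb genes, Tbx4 had peaks in each list, with 300 bp, 548 bp and 1448 bp, and Pitx1 had none. The part of cell makeup in the histone values was not tested.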

How the data were processed

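H3K27ac MicroChIP-seq of E10.5 forelimb buds was analysed from 3 peak lists, 1 per genotype, attached by the labels to replicate 1, and the labels do not state whether replicates were pooled. Groups were taken from sample titles, because the genotype label reads wild type for every sample. Per the labels, reads were aligned to mm10 with Bowtie2 2.2.5, and the authors called peaks with CisGenome. Peak positions are in steps of 50 bp. The authors deposited for each peak the FDR (a q-value), a caller score by which the list is ordered, the largest log2 fold over the input of that genotype, and the lowest Poisson p-value on a −log10 scale, which stops at 100 and was not compared. The deposited lists hold no counts, so the depth of each library is not in them.

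Peaks were assigned to a gene when they overlapped the GENCODE M21 gene span extended by 1 kb, and peaks of 2 lists were matched by an overlap of at least 1 bp. Covered length was counted once where windows overlap. Shares carry Wilson 95% intervals and medians an exact binomial interval. No p-values were computed, because each genotype has 1 list. Python 3.11.15, numpy 2.4.6, pandas 2.3.3, scipy 1.17.1 and matplotlib 3.10.9 were used, and the interval functions were tested on simulated data. Genes named one by one are those with a peak in 1 list of a pair and not in the other or in no list, the 3 with the widest and the 3 with the strongest peak per list, Hist1h4c with its neighbours within 10 kb, the 3 with the largest differences in covered bases, and listed genes whose presence differs. Others were named after their values were seen (Hist3h2a, Hist2h2bb, Hist1h2ba, Hist1h2aa, Hist4h4, Npat and Slbp). The members and gene lists were chosen with earlier results of these data known. Alternatives were a log2 fold of at least 3, an FDR below 0.05, lists of the same size, other windows, other overlap rules and Hist1 genes only.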

Additional observations from a re-analysis of the deposited data

How the results depend on the processing

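No paired analysis was possible because the 3 peak lists hold no replicate values, so leaving out a replicate was not possible either. The lists give no depth, which limits every width and covered length here. The Shh-/- to WT ratio of covered length stayed below 1 under every alternative run (0.713 to 0.875, of which the alternatives to this ratio were chosen after seeing the data): 0.746 at FDR below 0.05, 0.736 at a log2 fold of at least 3, 0.740 with equal numbers of peaks, 0.776 on gene spans, 0.764 within 1 kb of starts, 0.740 within 3 kb of spans, 0.755 for Hist1 genes, 0.713 with equal total width, 0.875 with peaks within 1 kb merged, 0.758 without the duplicated block, 0.768 without Hist1h4c and 0.751 at unique bases. At other protein-coding genes it lay between 1.01 and 1.32 under these settings, except at unique bases, where it was not computed. The Shh-/-;Gli3-/- to WT ratio was 1.06, 1.09, 1.04, 1.02, 1.03 and 1.02 under the first 6 of them and 1.06 at unique bases, but it fell below 1 with equal total width (0.989) and with merged peaks (0.986), and the cause was not tested.

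At FDR below 0.05 the WT, Shh-/- and double mutant lists covered 101 kb, 75.3 kb and 107 kb. At a log2 fold of at least 3 they covered 95.7 kb, 70.5 kb and 104 kb. With equal numbers of peaks the mutant lists covered 75.9 kb and 107 kb. Other windows changed these lengths by construction, to 49.3 kb, 38.3 kb and 50.5 kb on gene spans, 80.3 kb, 61.4 kb and 82.9 kb within 1 kb of starts, 113 kb, 83.4 kb and 115 kb within 3 kb of spans, and 87.0 kb, 65.7 kb and 91.0 kb for Hist1 genes. Median widths moved to 1300 bp in WT and 825 bp in Shh-/- at a log2 fold of at least 3, and to 1300 bp and 850 bp on gene spans.

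All Hist1 genes had a peak in each list (100%). On gene spans 91.0% of all 67 histone genes had one in Shh-/-, and 3 of the 67 had a WT peak and no Shh-/- peak. WT peaks without a Shh-/- peak were 8.06% at a log2 fold of at least 3, 55.4% with a reciprocal overlap of 50% and 4.35% when a gap of up to 500 bp was allowed. Those without a double mutant peak were 6.25% at FDR below 0.05, 1.61% at a log2 fold of at least 3, 6.41% within 1 kb of starts, 21.8% within 3 kb of spans, 56.5% with reciprocal overlap and 1.09% with the gap. Merging peaks within 1 kb brought the starts inside a peak to 62 in WT, 57 in Shh-/- and 63 in the double mutants.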
